A study of Pinus pinaster with 8 samples.

Results

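On cDNA microarray 1 of maritime pine (Pinus pinaster), 4 clones of lignan and phenylpropenal reductases are described here. They are GEM-113-F05 (phenylpropenal double-bond reductase, PPDBR), GEM-084-E03 (phenylcoumaran benzylic ether reductase, PCBER), and GEM-074-H02 and GEM-053-F06 (both pinoresinol-lariciresinol reductase, PLR, the latter named TH2 after its match in Tsuga heterophylla). The clones were taken by name, and each was traced to exactly 1 of the 2910 spots of the array by the mean of its ratios. All 4 came from a gene list that the study had drawn from this same contrast between xylem types. Their ratios are therefore given as a description and without a test. Clones outside that list carry no description, so other reductase clones on the array, if any, could not be recognized. The samples were developing xylem from the compression side (Cx) and from the opposite side (Ox) of the stems of 4 trees, 25 to 35 years old and growing in Sierra Bermeja, after the stems had been bent at 45 degrees for 2 months. Both xylem types came from the same bent stems, so that no unbent stem entered the comparison, and the probes were PCR-amplified inserts of a cDNA library of other trees, of the Corsican provenance.

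A Cx target and an Ox target, labeled with Cy3 and Cy5 or the reverse, were hybridized to each slide. The 8 columns of log2 ratios, 4 with Cx in Cy3 and 4 with Ox in Cy3, formed near-identical pairs, with correlations over all spots of 0.969 to 0.984 within a pair. The methods describe full duplicate copies of the array on every slide and 4 hybridizations. The columns of a pair were therefore averaged, which gave 4 hybridizations, numbers 1 and 2 with Cx in Cy3 and numbers 3 and 4 with Ox in Cy3. The labels number the trees 1 to 4 by replicate, so the columns of a pair carry different tree numbers, which copies on the same slide would not. Labels and data thus conflict, and which tree each hybridization used is not settled. The p-values below measure the spread between these hybridizations. All values are log2(Ox/Cx), so that a value below 0 is a higher signal in Cx. This direction follows the study's gene table and the legend of its plot of this array, both of which define the ratio as opposite over compression. The methods, by contrast, word the ratio as Cy3 over Cy5, which taken literally would give the reverse. A ratio carries no level of a transcript, so levels were not compared between genes. In bulk samples of this kind, a lower share of cells that express a gene and less transcript in each cell cannot be told apart. Marker genes of cell types were not checked.

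Lignans are phenylpropanoid dimers. Conifers make them from coniferyl alcohol, the monolignol that also forms most of their lignin, and they accumulate in wood, where many of them are known for antimicrobial and antioxidant properties. Laccases and peroxidases oxidize coniferyl alcohol to a radical, and dirigent proteins guide the coupling of such radicals. PLR reduces pinoresinol, an 8-8' linked dimer, to lariciresinol and then to secoisolariciresinol. PCBER opens the ether ring of 8-5' linked dimers such as dehydrodiconiferyl alcohol, and PPDBR reduces the double bond of the propenal side chain of phenylpropenals. PLR and PCBER belong to the same family of NADPH-dependent reductases, whereas PPDBR belongs to another family of reductases.

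The single-pass reads of the inserts show how close the clones are, which bears on whether their spots report on separate transcripts. The reads were 487 bases long for GEM-113-F05, 406 for GEM-084-E03, 307 for GEM-074-H02 and 614 for GEM-053-F06, of which the first 399, 399, 307 and 399 bases were used. The PCBER and PLR reads overlap at a block that begins with GCNATTAAAGA. The block is shown here because this start is the only place where 11 bases agree in all 3 reads with at most 1 difference, and the 11 bases TCAAGNGNTTT within it are in capitals.
GEM-084-E03 (PCBER), bases 53 to 102: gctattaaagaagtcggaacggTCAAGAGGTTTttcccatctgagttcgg
GEM-074-H02 (PLR), bases 275 to 307: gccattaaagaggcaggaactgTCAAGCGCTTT
GEM-053-F06 (PLR TH2), bases 62 to 204: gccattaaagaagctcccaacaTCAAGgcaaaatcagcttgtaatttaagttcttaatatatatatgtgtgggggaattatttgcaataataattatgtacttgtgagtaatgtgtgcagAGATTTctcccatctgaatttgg

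Over the 33 bases of this block, PCBER and the PLR clone GEM-074-H02 had 26 bases in common, PCBER and PLR TH2 had 23, and the PLR clones themselves also had 23 (the insertion left out). The PLR clones were thus no closer to each other there than PLR was to PCBER. In GEM-053-F06 the capitals are parted by 93 bases that have no counterpart in GEM-084-E03. This stretch, bases 89 to 181 of the read, can be placed in 3 ways that agree equally well with the PCBER read, 1 of which begins with gc and ends with ag, as printed. It was 71.0% A or T against 49.7% in the rest of the read, and it held 4 stop codons in the frame of the block, the first after 9 codons. What this stretch is was not tested. GCNATTAAAGA was searched on both strands of the study's 417 reads of at least 307 bases, each cut to its first 307. It was found in 5 (1.20%), and TCAAGNGNTTT unbroken in 4 (0.959%). Both counts include reads from which the patterns were taken, so these shares are not a background rate. Besides the PCBER and PLR reads shown, GCNATTAAAGA was found in GEM-033-D03 and TCAAGNGNTTT in GEM-045-D02. Both were also found in 4-3JME7, a read identical to GEM-084-E03 over 177 bases.

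Without the 93 bases, the PCBER and PLR TH2 reads aligned over 242 bases from the block onwards, with 1 gap and 62.0% identity. Their closest stretch is printed to show the family resemblance at its strongest, with the 47 shared bases of 60 in capitals.
GEM-084-E03 (PCBER), bases 179 to 238: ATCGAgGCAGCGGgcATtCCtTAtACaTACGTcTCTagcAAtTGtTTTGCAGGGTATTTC
GEM-053-F06 (PLR TH2), bases 284 to 343: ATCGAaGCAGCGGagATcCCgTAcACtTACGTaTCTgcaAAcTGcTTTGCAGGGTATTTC

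The read of GEM-074-H02 began further toward the start of the protein and held the pattern of glycine codons GGNNNNNNNGGNNNNNNNGGN at bases 11 to 31, of the kind that encodes the nucleotide-binding loop of such reductases. It is shown because the enzyme uses NADPH, and it is in capitals in the first 90 bases.
GEM-074-H02 (PLR), bases 1 to 90: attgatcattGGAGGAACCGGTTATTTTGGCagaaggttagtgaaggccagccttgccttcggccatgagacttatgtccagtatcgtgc

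The pattern is loose: 13.2% of the 417 reads held it on either strand. The reads used of the other 3 clones did not hold it in these bases.

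For GEM-113-F05 only the reverse complement of the read was searched for an open stretch, so which strand is the coding one was not tested. The longest open stretch from the start of a frame to its first stop had 50 codons before the stop codon (capitals). It is printed because this clone had the most negative mean ratio on the array.
GEM-113-F05 (PPDBR), reverse complement, bases 397 to 245 of the read: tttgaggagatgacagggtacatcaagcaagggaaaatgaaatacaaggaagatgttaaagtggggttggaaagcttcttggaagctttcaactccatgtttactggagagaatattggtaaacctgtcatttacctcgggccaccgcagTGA

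In a comparison of the clones with 577 reads of the study's clones by blastn, at an E-value of at most 1e-05, GEM-113-F05 and GEM-074-H02 matched no other read, and GEM-053-F06 matched only GEM-084-E03. GEM-084-E03 matched 3 further reads, all named PCBER. Clone 4-3JME7 was identical to it over 177 bases, clone 4-1JMB5 shared 97.0% of 133 bases, and clone 13-9XLC6, named as homolog TH3, shared 83.1% of 71 bases. Except for GEM-074-H02, the reads were longer than the bases used here, and the lengths of the whole inserts were not known. Similarity outside the bases used was not tested.

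Every reductase clone gave a higher signal in Cx, and PPDBR and PCBER had larger ratios than the PLR clones. PPDBR was 7.23-fold and PCBER 4.20-fold higher in Cx by their mean log2 ratios, and the PLR clones were 1.86-fold and 1.77-fold higher. All 16 values, 4 for each clone, lay below 0, between -3.78 and -0.61. The same was true of 661 of the 2910 spots (22.7%), which lay below 0 on every hybridization. The 2910 spots include 838 without a clone name. The methods name control spots on the array, and these were not told apart here. Ranks and shares are over all spots.

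PPDBR had values of -3.78, -2.94, -2.48 and -2.22 on hybridizations 1 to 4, a mean of -2.85 ± 0.68 (SD, n = 4). Each of these is a difference of 4.67-fold or more, up to 13.7-fold. Both hybridizations with Cx in Cy3 were below both with Ox in Cy3. By its mean it ranked 1st of the 2910 spots toward Cx, ahead of an unnamed spot at -2.83 ± 0.77, from which it differed by less than either spread. It ranked 1st on hybridizations 1 and 2 but only 11th and 17th on hybridizations 3 and 4. Its SD was at percentile 98.9 among all spots, while the duplicate copies on a slide differed by 0.11 at most, so that the spread lay between hybridizations and not between copies.

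The study places both PCBER and PPDBR in the pathway of 8-5' linked lignans. PCBER had values of -2.41, -2.07, -1.95 and -1.85 and a mean of -2.07 ± 0.25 (SD, n = 4). It ranked 21st of 2910, and its position varied little, from 15th on hybridization 1 to 30th on hybridization 4. Its order of the hybridizations was the same as that of PPDBR, from the most negative on number 1 to the least negative on number 4.

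The PLR clone GEM-074-H02 had values of -0.78, -0.92, -1.23 and -0.64, with a mean of -0.89 ± 0.25 (SD, n = 4). PLR TH2 (GEM-053-F06) had values of -0.77, -0.88, -1.05 and -0.61, with a mean of -0.83 ± 0.18 (SD, n = 4). They ranked 143rd and 174th toward Cx. Hybridization 3 was the most negative for both and hybridization 4 the least. The copies of GEM-053-F06 on a slide differed by up to 0.23, against 0.10 and 0.077 at most for GEM-084-E03 and GEM-074-H02 and a median of 0.11 for the largest copy difference of all spots.

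**Figure D1:**
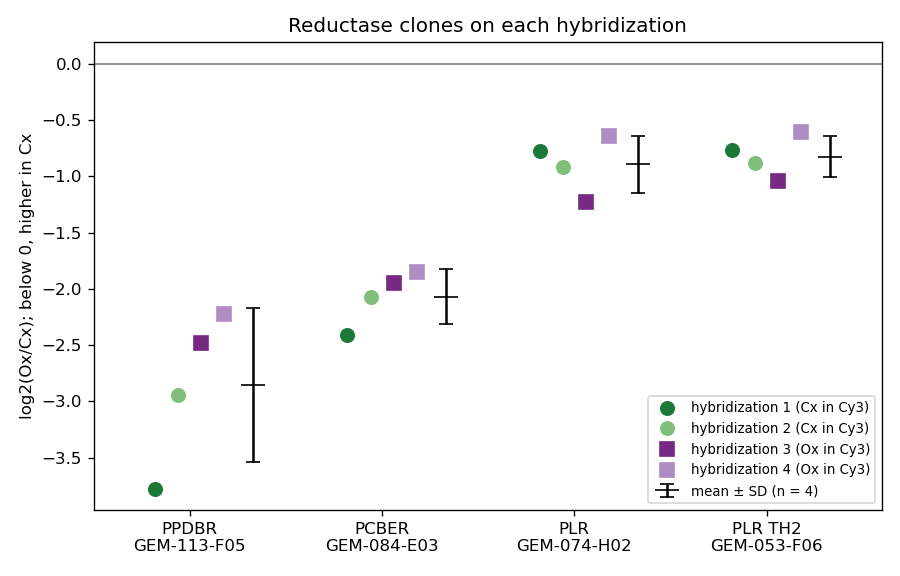
Log2(Ox/Cx) of each reductase clone (y axis) on hybridizations 1 and 2 (circles, Cx in Cy3) and 3 and 4 (squares, Ox in Cy3), with the mean ± SD of the 4 hybridizations as a bar. All 16 values lie below 0, those of PPDBR and PCBER at -1.85 or lower and those of PLR and PLR TH2 between -1.23 and -0.61.

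The values of PPDBR and PCBER did not overlap with those of the PLR clones. The values of PPDBR minus those of PCBER were -1.36, -0.87, -0.53 and -0.38 on hybridizations 1 to 4, a mean difference of -0.78 ± 0.44 (SD, n = 4). PPDBR was the lower on each hybridization, but the ranges of these clones overlapped between hybridizations. PCBER was below the PLR clone GEM-074-H02 by a mean of -1.18 ± 0.38 (SD, n = 4), with a negative difference on 4 of 4 hybridizations. GEM-074-H02 and GEM-053-F06 differed by -0.0069, -0.040, -0.19 and -0.033, a mean of -0.067 ± 0.081 (SD, n = 4), which is within the spread. Different probes hybridize with different efficiency, so that these are differences between the ratios of spots and not between transcript levels.

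**Figure D2:**
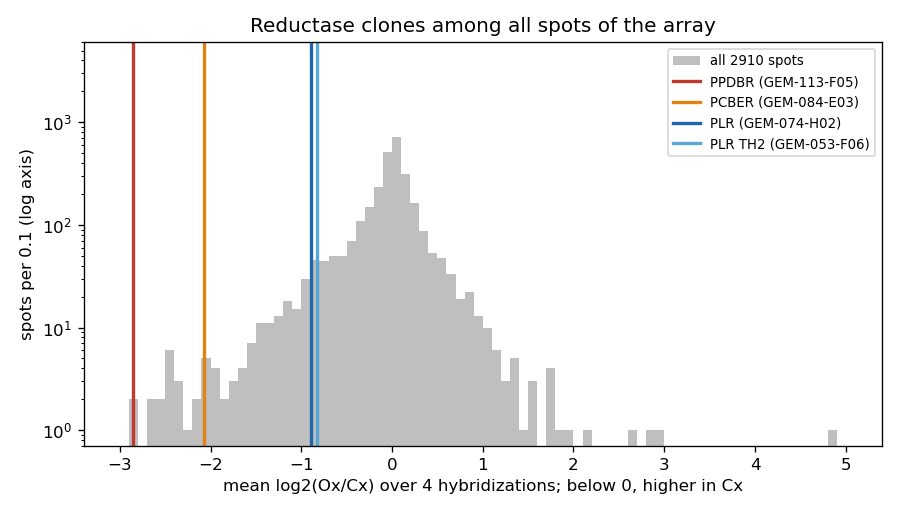
Number of spots per interval of 0.1 (y axis, log scale) by mean log2(Ox/Cx) over the 4 hybridizations (x axis) for all 2910 spots, with the mean of each reductase clone as a vertical line. PPDBR (-2.85) is at the lower end of the distribution and PCBER (-2.07) in its lower tail, and the PLR clones (-0.89 and -0.83) lie closer to the median of all spots, 0.006.

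In a robust linear model with an intercept only (limma, with Benjamini-Hochberg adjustment over all spots), 266 of the 2910 spots (9.14%) were called higher in Cx with a 1.5-fold or larger change and an adjusted p no higher than 0.05, and 97 (3.33%) higher in Ox. All 4 reductase clones were among the former. At 0.001, the limit on adjusted p in the methods, 16 spots (0.55%) were called higher in Cx and 6 (0.206%) higher in Ox, and 1 of the 4 clones, PCBER, was among them. The choice of the clones used this contrast, and nothing is read from either count of clones. The count at the stricter limit depended on the processing, between 0 and 4 of the clones.

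The dye swap also gives the difference between the ratios in both dye orientations. It is part of the spread that entered the study's own selection test, so it is given for the clones as a description and without a test. By the methods, the 4 hybridizations used different trees. In that case a difference between dye orientations and one between trees cannot be told apart. PPDBR had a mean of -3.36 with Cx in Cy3 and of -2.35 with Ox in Cy3, a difference of -1.007 ± 0.301 (SE), or 2.01-fold. The size of this difference was at percentile 99.3 among all spots. PCBER differed in the same direction by -0.34 ± 0.15 (SE). Without hybridization 1, these differences were -0.59 for PPDBR and -0.17 for PCBER. Those of the PLR clones, 0.088 ± 0.219 for GEM-074-H02 and 0.0012 ± 0.172 for GEM-053-F06 (SE), were smaller than their errors. In the least-squares fit of tissue and dye orientation that gave these errors (limma, adjusted over all spots), no spot was called for dye (0% at the 0.05 limit after adjustment), but 1091 (37.5%) had an unadjusted p of 0.05 or less. The robust fit of the same 4 averages also called 0 spots, with 1157 at the unadjusted limit, but the least-squares fit over the 2072 named spots alone called 229 (11.1%). The fits that use the 8 columns or same-numbered averages called 891 to 1564 of the 2910 spots.

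**Figure D3:**
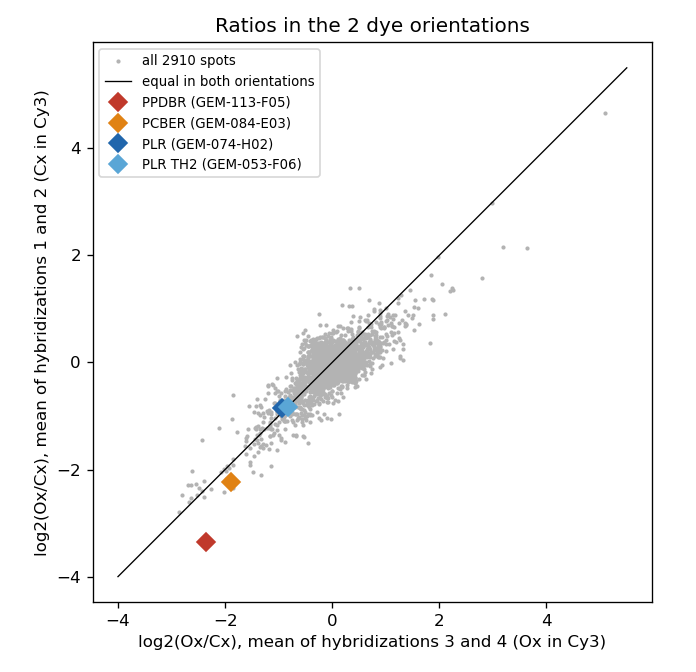
Mean log2(Ox/Cx) of hybridizations 1 and 2, with Cx in Cy3 (y axis), against that of hybridizations 3 and 4, with Ox in Cy3 (x axis), for all 2910 spots (dots) and the reductase clones (diamonds), with the line of equal ratios. PPDBR lies below the line at -2.35 and -3.36, PCBER nearer to it, and the PLR clones on or close to it.

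Both orientations placed every reductase clone on the side of Cx. With Ox in Cy3 alone, PPDBR was at -2.35, PCBER at -1.90, GEM-074-H02 at -0.94 and GEM-053-F06 at -0.83. With Cx in Cy3 alone, they were at -3.36, -2.24, -0.85 and -0.83, in the same order. Without hybridization 1, PPDBR was at -2.55 and PCBER at -1.96, and the difference between them fell from -0.78 to -0.59.

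The order of the hybridizations separated the clones in the same way as the size of their ratios. PPDBR and PCBER both had the order 1, 2, 3, 4 from the most to the least negative, which 12.6% of all spots and 9.02% of the spots called higher in Cx (0.05 limit) also had. Both PLR clones had the order 3, 2, 1, 4, found in 2.58% of all spots and 6.77% of the called spots. Hybridization 4 was the least negative for all 4 clones, and for 35.9% of all spots.

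The spot names were read as plate, row and column, which the sample labels do not state. By this reading the spots came from plates 1 (PPDBR), 8 (PCBER), 7 (GEM-074-H02) and 5 (GEM-053-F06). Neighbors by name need not be neighbors on the slide. The 8 neighbors of PPDBR by name had means between -0.06 and 0.11, and the 5 of PCBER between -0.009 and 0.80. None of these neighbors was below 0 on every hybridization. Among the 8 neighbors of GEM-074-H02 and of GEM-053-F06, 2 and 4 were, with means down to -0.31 and -1.11.

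The named spots with the most similar values over the 4 hybridizations were found by root mean square (RMS) difference of log2(Ox/Cx). They were not the same for both groups. An RMS difference includes the difference between means, so clones far apart in mean have different neighbors. A clone at the end of the distribution also has fewer spots near it than 1 closer to the median, so nothing is read from the distances. PPDBR had no close neighbor. The nearest were GEM-001-D03, fructokinase 3, which phosphorylates fructose (RMS difference 0.642), GEM-008-D06, similar to chloroplastic elongation factor Tu (0.643), and the laccase GEM-108-A10 (0.717). PCBER was nearest to GEM-086-F08, phenylalanine ammonia lyase (PAL), the entry enzyme of the phenylpropanoid pathway (0.121). That PAL clone had values of -2.51, -2.05, -2.13 and -1.73. The next were the laccase GEM-108-A10 (0.200) and GEM-110-H12, a malate dehydrogenase precursor (0.235), with a mean of -1.95 ± 0.053 (SD, n = 4).

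Around the PLR clones the distances were smaller. GEM-074-H02 was nearest to GEM-088-H05, of unknown function (0.0904), to GEM-076-H07, a putative precursor of the peptide hormone phytosulfokine (0.0907), and to the other PLR clone (0.0970). GEM-053-F06 was nearest to GEM-069-H06, of unknown function (0.0518), GEM-088-H05 (0.0703) and GEM-002-F07, a mitochondrial aspartate transaminase precursor (0.0782).

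The clones for the enzymes that supply the lignan pathway were also higher in Cx. The study had selected them on these samples, so that neither their counts nor their direction is independent evidence. Of 8 clones for enzymes that lead to coniferyl alcohol, 8 were called higher in Cx at the 0.05 limit and 0 at 0.001 in the robust limma fit, with a median of the means of -1.20 and a range from -2.11 to -0.81. The median of all spots was 0.006. PAL was represented by GEM-086-F08 (-2.11 ± 0.32) and GEM-025-E12 (-1.27 ± 0.14). The coumarate 3-hydroxylase clone GEM-002-C04 (C3H, which adds a ring hydroxyl group) had -1.40 ± 0.39. The 4-coumarate:CoA ligase clones (4CL, which activate the acids for reduction) were the least negative, at -0.93 ± 0.52 for GEM-081-A07 and -0.81 ± 0.31 for GEM-006-C11. The cinnamyl alcohol dehydrogenase clones (CAD, the enzyme of the last step to coniferyl alcohol) were close together, at -1.20 ± 0.42 (GEM-095-C04), -1.20 ± 0.24 (GEM-020-C04) and -1.17 ± 0.32 (GEM-085-D03). These are means ± SD with n = 4. The robust estimates, to which the calls belong, were nearer to 0 for GEM-002-C04 (-1.24), GEM-081-A07 (-0.74) and GEM-095-C04 (-1.06), and 7 of the 8 clones were called at the 0.05 limit without hybridization 2 or without hybridization 3.

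Of 5 clones for proteins of radical formation and coupling, 5 were called higher in Cx at 0.05 and 2 at 0.001, with a median of the means of -1.05. The laccases GEM-055-E03 (-2.42 ± 0.21) and GEM-108-A10 (-2.23 ± 0.34) were nearer to PCBER than to the PLR clones. The means of GEM-086-G05 (-1.05 ± 0.44) and GEM-060-E04 (-0.92 ± 0.24) were a little below those of the PLR clones. On single hybridizations GEM-086-G05 ran from -1.67 to -0.70, and the PLR clones from -1.23 to -0.61. The dirigent-like clone GEM-042-F03 had values of -1.17, -0.97, -0.63 and -0.68, with a mean of -0.87 ± 0.25 (SD, n = 4). Its mean was between those of the PLR clones, but its order of the hybridizations was 1, 2, 4, 3, against 3, 2, 1, 4 for them. Hybridization 1 was the most negative in 7 of the 8 coniferyl alcohol clones and 4 of the 5 coupling clones, as it was for PPDBR and PCBER, against 30.3% of all spots and 46.2% of those called higher in Cx. It was not so for the PLR clones.

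**Figure D4:**
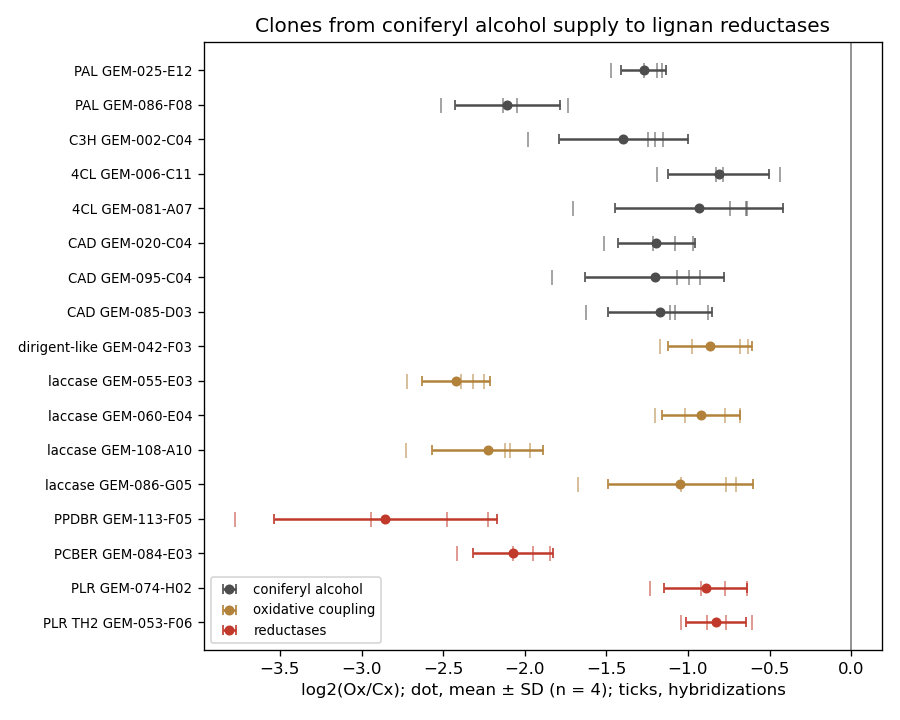
Log2(Ox/Cx) (x axis) of the clones for coniferyl alcohol synthesis (dark gray), oxidative coupling (brown) and the reductases (red), with the mean ± SD as a dot and bar and the 4 hybridizations as ticks. PPDBR has the lowest mean (-2.85), a PAL clone, a pair of laccases and PCBER lie between -2.42 and -2.07, and the PLR and dirigent-like clones lie between -0.89 and -0.83.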

How the data were processed

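The authors deposited log2 ratios of 2910 spots in 8 columns, quantified in GenePix, background-corrected by normexp and normalized by print-tip loess without scaling between arrays (R 2.7.1, limma 2.14.5). Print-tip loess takes most spots as unchanged, so that a shift common to all genes would be removed. The median of a column lay between -0.03 and 0.02. Intensities were not analysed here, so the filters on flags and on signal over background were not repeated and the number of arrays limits the precision. All 8 columns were mapped to samples.

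The sign of each Ox-in-Cy3 column was turned, and replicates 1 and 2, and 3 and 4, of each orientation were averaged. Spots took clone names where their mean over 8 columns matched a clone's value in the study's gene tables to 0.7 units of the last printed digit, a join key only; 2072 spots were named, and 838 were not. Calls came from limma 3.58.1 (robust fit, at most 200 iterations; statmod 1.5.0 for blocks) at 1.5-fold. The dye term was fitted by least squares. Values with ± are plain means. Sequences were compared with blastn 2.17.0 and biopython 1.88 in Python 3.11.15; reads longer than 399 bases were held only in part. R 4.3.3, numpy 2.4.6, pandas 2.3.3 and matplotlib 3.10.9 were used.

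Named were all reductase clones, all clones of both lists (coniferyl alcohol and oxidative coupling) and, for each reductase, the 3 named spots nearest by RMS difference. The clones, lists and tests were chosen with earlier results of these data known. Alternatives were averages or blocks over the 8 columns, least squares, centring, scaling, each orientation alone, named spots only and leaving out each hybridization. The robust estimate of each reductase clone was set beside its plain mean after the data were seen.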

Additional observations from a re-analysis of the deposited data

Results flagged for a closer look

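Of 24 clones named, 3 had a hybridization that stood apart from the other 3 by Dixon's criterion for 4 values, which chance gives in about 1 of 20 groups. Each is a clone of coniferyl alcohol synthesis and each stood apart on hybridization 1. The C3H clone GEM-002-C04 was at -1.98, against -1.24 to -1.16 on the others. The 4CL clone GEM-081-A07 was at -1.70, against -0.74 to -0.64. The CAD clone GEM-095-C04 was at -1.83, against -1.06 to -0.92. None of the 4 reductase clones was marked. The part of hybridization 1 in these values was not tested.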

How the results depend on the processing

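Under every alternative run, the ratios of the 4 reductase clones and the differences between them moved by less than their SD over the hybridizations. Their 4 calls at the 0.05 limit and the counts and medians of both lists stayed within the limits set for change, and no direction turned. Most of this was fixed in advance. Leaving out a hybridization or an orientation cannot move a mean of 4 values by its SD. All ratios and differences lay below 0 on each hybridization, so no subset could turn a direction. Averages and blocks over the 8 columns and least squares gave equal or nearly equal means by construction. The calls rest on the contrast that chose the clones and lists. The number of reductase clones called at 0.001 was 1. It was 4 with same-numbered columns averaged, with 8 independent columns, with slides as a block over the 8 columns and with the tree number as a random replicate block, 2 by least squares, and 0 after scaling, in either orientation alone and among named spots only. Leaving out each hybridization gave 0 to 2 (2 without hybridization 1, 0 without number 2 or 3). The spots called higher in Cx and Ox at 0.001 (16 and 6) were 173 and 73 with same-numbered averages, 254 and 81 with 8 columns, 240 and 87 with the slide block, 287 and 123 with the replicate block, 107 and 22 by least squares, 0 and 0 after scaling and in each orientation alone, and 8 and 1 among named spots. They were 3 to 31 and 2 to 13 when each hybridization was left out. With Ox in Cy3 alone, 196 spots were called higher in Ox at 0.05, against 97. The differences between dye orientations for PPDBR and PCBER were also -1.007 and -0.34 with same-numbered averages, the slide block and the replicate block. With 4 columns in each orientation, these fits return the same difference by construction. Those of PPDBR and PCBER were -1.43 to -0.59 and -0.52 to -0.17 when each hybridization was left out. Without hybridization 3, those of GEM-074-H02 and GEM-053-F06 were below 0 (-0.21 and -0.22). That of GEM-053-F06 was also below 0 without hybridization 1 (-0.055). Fits over 8 columns take the near-identical copies as more samples than there were hybridizations. The tree numbers did not pair the columns: deviations of same-numbered columns correlated at -0.03 to 0.004. The cause of the other changes was not tested. Depth could not be judged without intensities.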
